A study of Homo sapiens with 2 samples.

Results

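Among the promoter contacts of K562 cells, 426 fragment pairs joined 1 of 4 combinations of chromosomes: chromosome 3 to 10, 6 to 16, 1 to 18 or 5 to 18. They were chosen by the chromosomes of their ends from lists that hold 138160 different pairs in all. The 4 combinations themselves were selected on the positions and scores of the pairs in these same lists, where the pairs had been seen to gather in a few places. Of the 426 pairs, 266 stood in the ponatinib list and 248 in the DMSO list, and 88 stood in both. That the pairs gather, and how high their scores are, is therefore a description of the choice and carries no test.

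The data came from promoter-capture Hi-C, in which chromatin is crosslinked, cut with HindIII and ligated, and pairs with a promoter fragment (the bait) are pulled out with RNA probes. K562, an established human chronic myelogenous leukaemia line, had received ponatinib, an inhibitor of the ABL kinase, at 100 nM for 24 h, or the vehicle DMSO for 24 h. Each treatment had 1 library from an equal number of cells, so without replicates the drug could not be tested. Both lists come from this 1 line, whose cells share its chromosomes.

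A chromosome translocation puts segments of different chromosomes side by side on 1 DNA molecule. In Hi-C maps such a junction appears as contacts between the 2 segments that are dense at the breakpoint, thin out with distance from it, and lie on 1 side of it on each chromosome. K562 carries the BCR-ABL1 fusion of chromosomes 9 and 22 and many other rearrangements. Promoter capture sees a junction only through the baits that lie close to it.

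The ponatinib list held 91305 pairs and the DMSO list 84049, and pairs between chromosomes, unplaced scaffolds included, numbered 6797 and 6355. Each pair has a score, the authors' own value within its list, and no score lies below 5; the lowest scores of the 426 pairs were 5 in the ponatinib list and 5.08 in the DMSO list. Read depth is unknown because the files give no counts. Coordinates are hg38. Intervals of ratios and shares are exact 95% binomial intervals that cover counting error only and treat pairs as independent, which pairs of 1 bait are not.

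Most of the gathered pairs shared a few bait fragments. Of the 8 bait fragments with 5 or more pairs, 4 hold a listed RefSeq transcription start of the gene they lie in: ATXN1, PARS2, DNAH5 and NTNG1. For ANKRD29 no start was listed, so its bait could not be judged. The promoters of 3 of the 4 genes with such a start are shown. Added are that of GSE1, whose bait paired with the ATXN1 bait, and that of CDC25A, which lies just beyond the bait with the most pairs. Each runs from 250 bases before the start to 50 bases after it, 5′ to 3′ on the strand of the gene, from RefSeq on GRCh38.p14, with the bases from the start onward in capitals. They lie at chr6:16761411-16761710 on the minus strand for ATXN1, chr16:85613072-85613371 on the plus strand for GSE1, chr3:48188368-48188667 on the minus strand for CDC25A, chr1:54764474-54764773 on the minus strand for PARS2 and chr5:13944639-13944938 on the minus strand for DNAH5.
ATXN1: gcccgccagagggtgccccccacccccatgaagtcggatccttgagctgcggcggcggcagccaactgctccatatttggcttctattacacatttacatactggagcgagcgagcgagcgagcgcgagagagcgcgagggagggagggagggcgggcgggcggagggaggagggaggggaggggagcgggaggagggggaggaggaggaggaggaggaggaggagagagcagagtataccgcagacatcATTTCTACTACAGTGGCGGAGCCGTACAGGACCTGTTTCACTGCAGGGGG
GSE1: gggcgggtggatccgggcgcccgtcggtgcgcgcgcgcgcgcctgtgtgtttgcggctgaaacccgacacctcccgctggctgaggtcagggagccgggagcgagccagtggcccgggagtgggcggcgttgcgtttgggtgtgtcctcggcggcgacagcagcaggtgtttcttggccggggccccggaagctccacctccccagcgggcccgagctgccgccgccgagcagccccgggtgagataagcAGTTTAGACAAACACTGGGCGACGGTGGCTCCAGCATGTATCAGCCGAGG
CDC25A: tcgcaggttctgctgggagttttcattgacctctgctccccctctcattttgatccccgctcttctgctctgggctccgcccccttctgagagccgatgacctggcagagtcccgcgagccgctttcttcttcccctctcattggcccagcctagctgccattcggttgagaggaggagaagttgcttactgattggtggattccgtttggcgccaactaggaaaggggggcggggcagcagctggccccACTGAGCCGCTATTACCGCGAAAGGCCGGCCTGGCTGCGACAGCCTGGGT
PARS2: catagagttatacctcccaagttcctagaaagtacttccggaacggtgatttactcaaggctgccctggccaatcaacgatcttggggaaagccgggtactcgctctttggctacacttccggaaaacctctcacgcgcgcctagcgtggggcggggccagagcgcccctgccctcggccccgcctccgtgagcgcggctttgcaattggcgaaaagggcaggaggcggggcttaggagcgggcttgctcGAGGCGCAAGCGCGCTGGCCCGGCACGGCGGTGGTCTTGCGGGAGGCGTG
DNAH5: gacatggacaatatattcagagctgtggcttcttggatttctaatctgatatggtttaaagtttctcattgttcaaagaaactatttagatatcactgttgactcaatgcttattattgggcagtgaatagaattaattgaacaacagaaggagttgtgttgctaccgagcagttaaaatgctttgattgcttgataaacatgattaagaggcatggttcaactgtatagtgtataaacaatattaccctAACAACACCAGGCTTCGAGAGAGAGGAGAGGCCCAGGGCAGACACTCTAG
The share of G and C was 64.7% for ATXN1, 71.0% for GSE1, 61.0% for CDC25A, 64.0% for PARS2 and 37.7% for DNAH5, against a median of 58.7% over 35116 promoters of the same length. The HindIII site AAGCTT was in none of the 5, and 5.84% of all these promoters hold it. The GC box GGGCGG, searched on both strands (as CCGCCC on the other) and counted without overlapping matches, occurred 2 times each in ATXN1, GSE1 and CDC25A, 1 time in PARS2 and not in DNAH5, and 44.95% of all promoters hold it. The DNAH5 sequence thus stood apart from the other 4 in its base composition. The starts used for DNAH5 and GSE1 lie inside the genes, which RefSeq places at chr5:13690328-14011818 and chr16:85169512-85676200. For these 2 the sequence is therefore not that at the outer end of the gene.

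Pairs were linked when both of their ends lay within 1 Mb of each other, and the largest linked group of a combination is called its gathered window. The windows held 93 of 155 pairs for chromosomes 3 and 10 (60%, 51.8 to 67.8), 61 of 100 for 6 and 16 (61.0%, 50.7 to 70.6), 52 of 98 for 1 and 18 (53.1%, 42.7 to 63.2) and 55 of 73 for 5 and 18 (75.3%, 63.9 to 84.7). Chromosomes 1 and 18 had a second linked group of 29 pairs, singled out after its size was seen and called the second window. The remaining pairs were mostly alone: 58 of the 61 linked groups of chromosomes 3 and 10 were single pairs, 25 of 31 for 6 and 16, 17 of 19 for 1 and 18, and 14 of 16 for 5 and 18. In 195 other combinations with at least 10 pairs, with the pairs joining 9, 13 and 22 to each other left out, the median largest group was 1 pair. A group of 10 or more was found in 4 of them, with 47 pairs for 10 and 12, 37 for 17 and 21, 22 for 12 and 21 and 12 for 3 and 6.

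**Figure D1:**
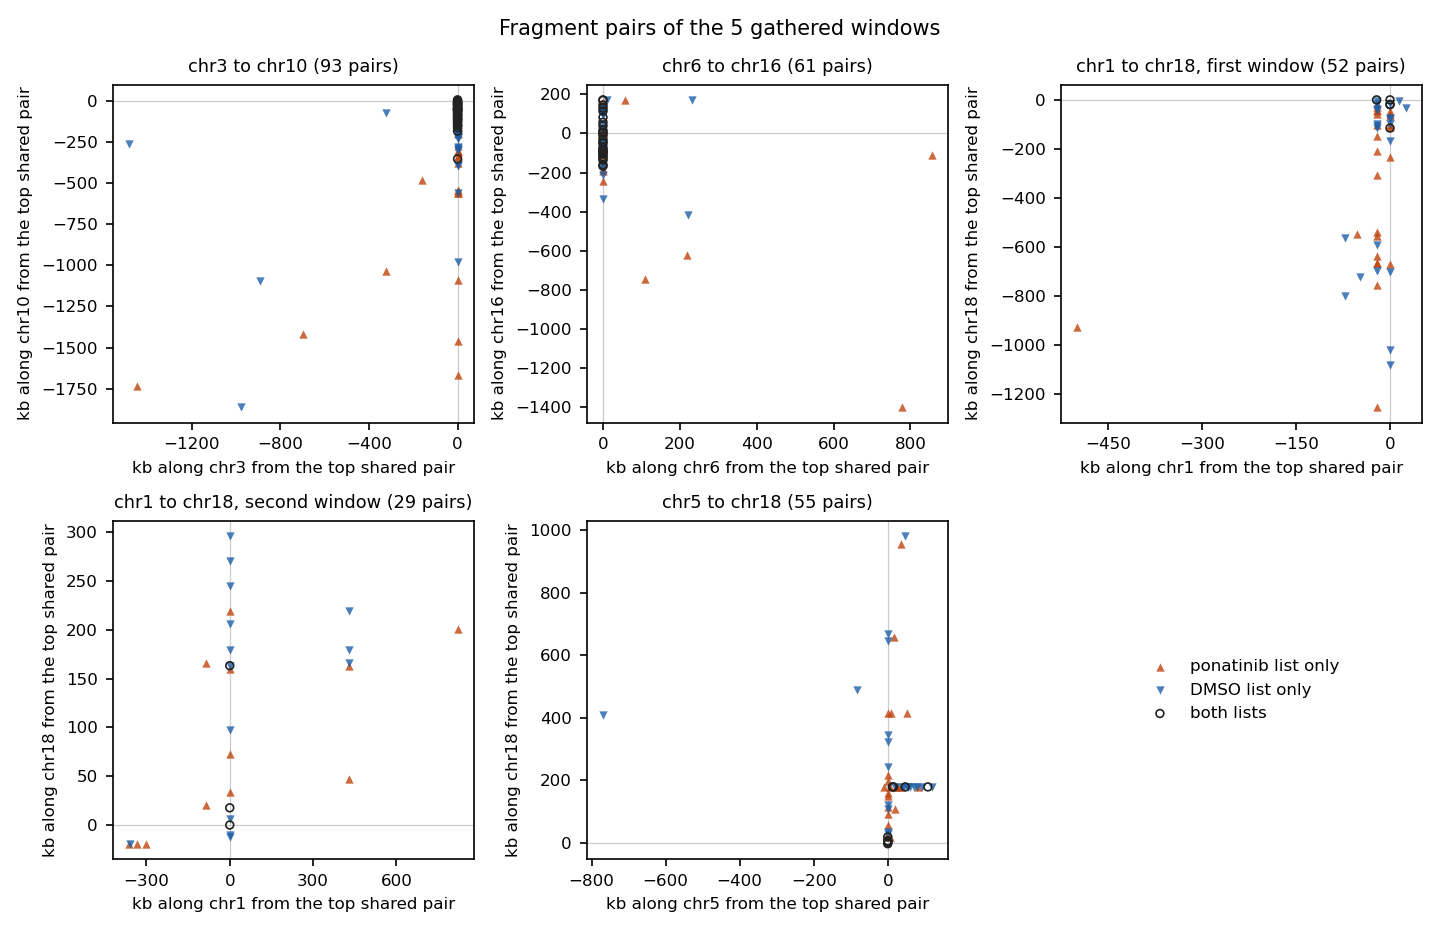
Positions of the pairs in the 5 windows, as distance in kb along each chromosome from the highest scoring pair found in both lists. Triangles pointing up are pairs of the ponatinib list only, triangles pointing down of the DMSO list only, and open circles of both lists. The vertical and horizontal rows of points are pairs that share 1 bait; in the chromosome 3 to 10 window 85 of 93 pairs share the bait in CDC25A.

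The 5 windows held 290 pairs, 190 in the ponatinib list and 187 in the DMSO list, with 87 in both. Outside them lay 136 pairs, 76 and 61, of which 1 was in both lists. The median score in the windows was 12.27 in the ponatinib list and 15.81 in the DMSO list, against 5.86 and 5.95 outside them. Scores of at least 10 made up 63.2% of the window pairs in the ponatinib list and 69.5% in the DMSO list, and 6.58% and 8.20% outside. Of the 87 pairs in both lists, 42 scored higher in the ponatinib list (48.3%) and 45 in the DMSO list. Over all pairs found in both lists, 53.6% scored higher in the ponatinib list. Scores are values within each list, so these counts do not compare the treatments.

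Sharing, an identical pair in both lists, is given as a description, since it goes with the score, on which the combinations were selected. It covered 45.8% of the window pairs of the ponatinib list (38.6 to 53.2) and 46.5% of those of the DMSO list (39.2 to 53.9). Pairs on a single chromosome were shared to 41.7% and 45.4%, and those of them that span over 1 Mb to 24.6% and 30.2%. All other pairs between chromosomes, with those joining 9, 13 and 22 to each other left out, were shared to 0.839% (0.538 to 1.25) of the ponatinib list and 0.820% (0.526 to 1.22) of the DMSO list. Their median scores were 6.16 and 6.21, lower than in the windows. Among the linked groups of these other combinations, 1 of 47 pairs was in both lists for 10 and 12, 5 of 37 for 17 and 21, 2 of 22 for 12 and 21, 6 of 12 for 3 and 6 and 3 of 4 for 7 and 15. Pairs between chromosomes 9, 13 and 22, where the BCR-ABL1 fusion lies, were shared to 50.7% and 58.9%.

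**Figure D2:**
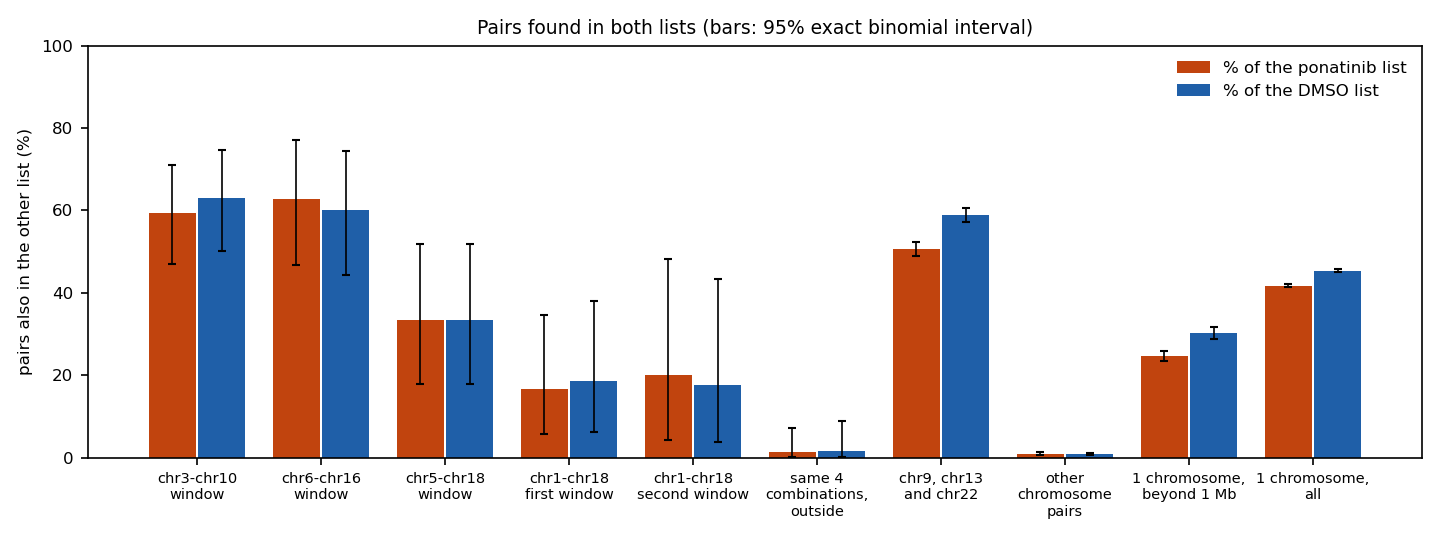
Percent of the pairs of each list that also stand in the other list, ponatinib bars left of DMSO bars, with exact 95% binomial intervals. The chromosome 3 to 10 and 6 to 16 windows stand near 60%, the windows on chromosome 18 between 16.7% and 33.3%, and pairs of the same combinations outside the windows under 2%.

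The numbers of pairs hardly differed between the treatments. All 426 pairs gave a ratio of ponatinib over DMSO numbers of 1.07 (0.899 to 1.28), with 1.09 (0.812 to 1.45) for chromosomes 3 and 10, 1.17 (0.814 to 1.68) for 6 and 16, 0.963 (0.645 to 1.44) for 1 and 18 and 1.05 (0.668 to 1.65) for 5 and 18. Each interval includes both 1 and the ratio of the whole lists, 1.09. Without the ATXN1 bait the ratio for 6 and 16 was 1.82, and no interval was computed for it. Most of the pairs left lay outside the gathered window. There 26 stood in the ponatinib list and 14 in the DMSO list, a ratio of 1.86 (0.935 to 3.85). Counting every interaction of the 8 baits, 0 of 8 had at least 2-fold more and 0 of 8 at least 2-fold fewer in the ponatinib list, where 10.5% and 7.17% of all baits with at least 5 interactions did; the fold was taken on numbers plus 1.

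The window of chromosomes 3 and 10 spans chr3:46685826-48182519, from ALS2CL to CDC25A, and chr10:84220282-86092604, from LRIT2 to GRID1. CDC25A is the phosphatase that removes inhibitory phosphates from cyclin-dependent kinases at entry into S phase, and GRID1 encodes a delta-type subunit of the glutamate receptor family. It held 69 pairs of the ponatinib list and 65 of the DMSO list, 41 of them in both, which is 59.4% (46.9 to 71.1) and 63.1% (50.2 to 74.7). A single bait inside CDC25A, chr3:48167430-48182519, carried 85 of the 93 pairs, 65 in the ponatinib list and 61 in the DMSO list. All 41 pairs in both lists were its pairs.

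This bait reached chr10:84414407-86092604, and 76 of its 85 partner fragments overlapped GRID1, 58 of them in the ponatinib list, 59 in the DMSO list and 41 in both. Most partners lay beside another one, with gaps between the rows: 74 of 85 adjoined another partner. The longest unbroken row had 19 fragments, and all partners together spread over 1678 kb. Its pair with chr10:86083934-86087117 scored 514.17 in the ponatinib list and 441.22 in the DMSO list. The fragment on the higher side of that, chr10:86087118-86092604, scored 96.62 and 242.79 and was the last partner on that side. On the lower side chr10:86077931-86083933 scored 130.85 and 113.94, and chr10:86069705-86072330 scored 77.05 and 154.42. The same partner thus ranked first in both lists, and the order of the next ones differed.

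Scores thinned out from this point toward lower coordinates. Taking the sum of both ends' distances from the top pair, the median score under 100 kb was 37.62 (31 pairs) in the ponatinib list and 34.96 (30 pairs) in the DMSO list. From 100 to 300 kb it was 12.08 (20 pairs) and 15.81 (24 pairs), from 300 kb to 1 Mb 10.92 (12 pairs) and 11.38 (8 pairs), and beyond 1 Mb 8.45 (6 pairs) and 5.22 (3 pairs). The rank correlation of score with distance across pairs was -0.76 in the ponatinib list and -0.63 in the DMSO list, a description in which most points share 1 bait. Sharing thinned out as well, from 29 of 31 pairs of the ponatinib list and 29 of 30 of the DMSO list under 100 kb to 11 of 20 and 11 of 24, then 1 of 12 and 1 of 8, and none of 6 and none of 3 beyond 1 Mb. Here and in the other windows, the top pair was the highest scoring of the pairs in both lists. High scores and sharing close to it are thus partly set by that choice.

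**Figure D3:**
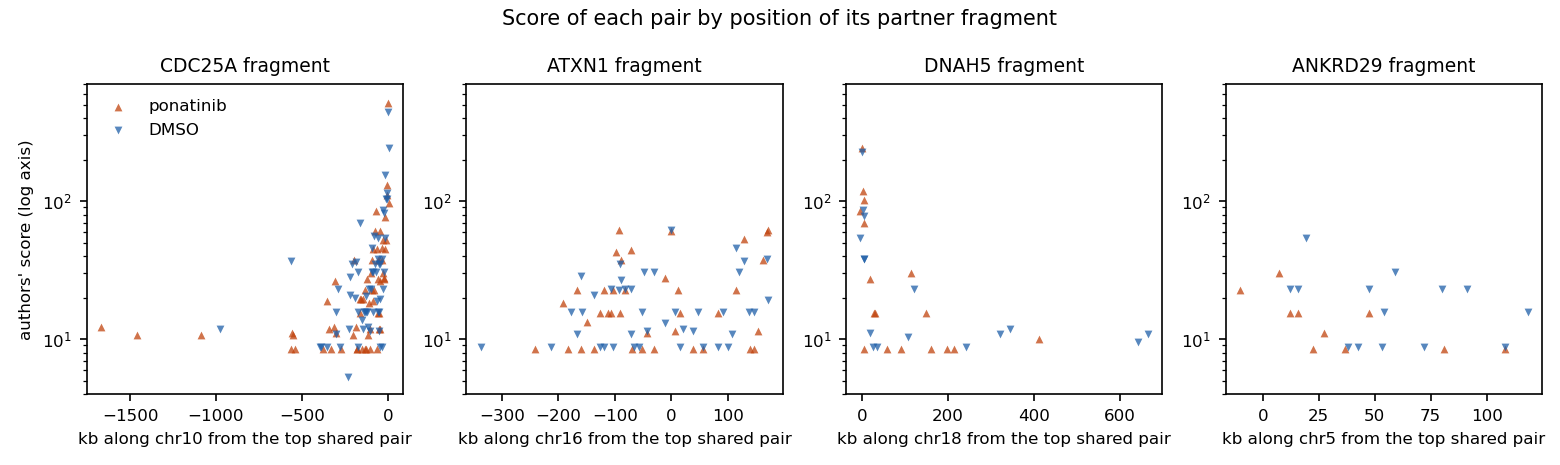
The authors' score (log axis) of the pairs of 4 baits against the position of the partner fragment, in kb from the highest scoring pair found in both lists. Triangles pointing up are the ponatinib list and triangles pointing down the DMSO list. The CDC25A and DNAH5 baits peak at 0 kb with scores above 200 in both lists and fall off to 1 side, while the ATXN1 bait stays at or below 62.01 with no single peak.

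The contacts were one-sided on chromosome 10. There 67 of 69 pairs of the ponatinib list and 63 of 65 of the DMSO list lay below the top fragment, and 1 and 1 above it. On chromosome 3, 65 of 69 and 61 of 65 pairs were those of the CDC25A bait itself, which has no side. The other 4 of each list lay below it, none of them in both lists, and no pair lay above it. On chromosome 3 the next bait, chr3:48187235-48194676, which lies 4.72 kb further and holds the CDC25A start, had no pair with chromosome 10, although it had 14 interactions in the ponatinib list and 15 in the DMSO list. The bait with the pairs ends 5.90 kb short of that start.

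Contacts of the same bait along its own chromosome, a readout the choice of chromosomes did not use, lay on the lower side too: 10 lower and 0 higher in the ponatinib list, 5 lower and 1 higher in the DMSO list. Among baits with at least 10 such contacts over both lists, 41.5% have at least 90% of them on 1 side, so this is common. Of the 5 window baits with enough contacts, 4 passed that mark: CDC25A (92.9%), PARS2 (93.3%), TTC22 (93.8%) and ANKRD29 (93.8%), while ATXN1 had 51.3%. For ANKRD29 this rested on fragments over 10 Mb away, which made up 36 of its 41 contacts on the lower side in the ponatinib list and 36 of 36 in the DMSO list, against 3 contacts on the higher side in each. The balance of ATXN1 also rested on such fragments. They made up 15 of its 25 contacts on the higher side in the ponatinib list and 17 of 29 in the DMSO list. On the lower side it had 21 and 32 contacts.

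The other members of the CDC25 family had few or no interactions with other chromosomes. CDC25A had 65 interactions with other chromosomes in the ponatinib list and 62 in the DMSO list, out of 89 and 83 in all, over both of its baits. CDC25B had 1 and 0 of 8 and 7, and CDC25C 0 and 0 of 4 and 7. The 2 baits that overlap GRID1 had 3 interactions in the ponatinib list and 0 in the DMSO list.

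The window of chromosomes 6 and 16 spans chr6:16758974-17620583, from ATXN1 to NUP153, and chr16:84035798-85615105, from SLC38A8 to GSE1. ATXN1 encodes a nuclear repressor whose expanded glutamine tract causes spinocerebellar ataxia type 1, and GSE1 a coiled-coil protein found with histone deacetylase complexes. It held 43 pairs of the ponatinib list and 45 of the DMSO list, 27 of them in both, which is 62.8% (46.7 to 77.0) and 60% (44.3 to 74.3). The bait over the ATXN1 start, chr6:16758974-16763272, carried 53 of the 61 pairs, 38 and 42, and all 27 in both lists. Of its 53 partners, 52 overlapped GSE1, 38 in the ponatinib list and 41 in the DMSO list, and the longest unbroken row had 15 fragments.

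No single point stood out on chromosome 16. The pair with the highest sum of scores, chr16:85436050-85445497, scored 60.98 in the ponatinib list and 61.76 in the DMSO list. The fragment chr16:85347800-85347952 scored 62.01 and 22.53, and chr16:85609648-85609960 scored 59.61 and 38.17. The last partner on the higher side was chr16:85609961-85615105, the bait that holds the start of GSE1 within this gene, and the ATXN1 promoter paired with it at 61.86 and 19.15. This promoter pair was one of 5 pairs in the 290 with a bait at both ends (1.72%), against 3.15% for chromosomes 9, 13 and 22 and 18.8% on single chromosomes.

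The median score was 15.50 in the ponatinib list and 15.81 in the DMSO list both under 100 kb (18 and 22 pairs) and from 100 to 300 kb (21 and 20 pairs). The rank correlation with distance was -0.20 and -0.11. Partners of the ATXN1 bait lay on both sides of the top pair, and among all pairs of the window 15 of 43 in the ponatinib list and 19 of 45 in the DMSO list were above it. The scores of this window thus did not thin out within 300 kb.

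The ATXN1 bait kept contacts on both sides of its own chromosome, 21 lower and 25 higher in the ponatinib list and 32 lower and 29 higher in the DMSO list. The higher ones included a separate set over 10 Mb away, 15 contacts in the ponatinib list and 17 in the DMSO list, 9 in both, at 34.1 to 35.1 Mb. Of their 23 partners, 18 overlapped PKHD1, the gene of the ciliary protein fibrocystin, 13 in the ponatinib list, 14 in the DMSO list and 9 in both. They scored up to 57.89 and 83.93, and the last lay at chromosome 6 position 51876513. Only 13 of 17883 baits (0.0727%) had at least 10 contacts beyond 10 Mb on their chromosome, ATXN1 and ANKRD29 among them. PKHD1 was named after its values were seen. The related genes ATXN1L and ATXN2 had 0 interactions with other chromosomes in either list, out of 4 and 9 in the ponatinib list and 3 and 11 in the DMSO list.

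The window of chromosomes 5 and 18 spans chr5:13170620-14060776, with DNAH5 as its only protein-coding gene, and chr18:23474144-24460988, from RIOK3 to HRH4. DNAH5 is a heavy chain of the dynein arms of motile cilia, RIOK3 an atypical kinase, NPC1 the cholesterol transporter of the late endosome, RMC1 a late endosome protein, LAMA3 a laminin chain and ANKRD29 an ankyrin repeat protein. It held 33 pairs of each list, 11 of them in both, which is 33.3% (18 to 51.8). Here baits on both chromosomes saw the window. The bait over the DNAH5 start, chr5:13936767-13947197, had 26 pairs, 17 in the ponatinib list, 16 in the DMSO list and 7 in both, and the bait over ANKRD29, chr18:23654711-23663267, had 20 pairs, 10, 14 and 4.

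The DNAH5 bait peaked at the end of RIOK3 that faces RMC1. Its pair with chr18:23480142-23481176 scored 241.43 in the ponatinib list and 225.67 in the DMSO list. The next fragment up, chr18:23481177-23484710, scored 118.54 and 86.23, and chr18:23484711-23485196, just past RIOK3, scored 101.74 and 77.99. The fragment below the peak, chr18:23474144-23480141, scored 85.21 and 53.79 and was the lowest partner. The partner chr18:23485197-23485360 scored 8.52 and 38.17. Of the 11 pairs of the window in both lists, 6 scored higher in the ponatinib list (54.5%, against 53.6% over all shared pairs) and 5 in the DMSO list. With the bait over RMC1 and NPC1, chr18:23491262-23506635, the scores were 27.07 and 11.10.

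The median score under 100 kb was 21.29 (12 pairs) in the ponatinib list and 38.17 (9 pairs) in the DMSO list, from 100 to 300 kb 11.25 (16 pairs) and 15.81 (17 pairs), and from 300 kb to 1 Mb 9.96 (5 pairs) and 10.95 (5 pairs). Beyond 1 Mb lay no pair of the ponatinib list and 2 pairs of the DMSO list, with a median of 14.22 and a maximum of 23.09. The rank correlation was -0.62 and -0.48. On chromosome 18, 31 of 33 pairs of either list lay above the top fragment and 1 of each below it. Of the 11 pairs in both lists, none lay beyond 300 kb.

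Seen from chromosome 18, the ANKRD29 bait had its partners at chr5:13926910-14060776, 14 of 20 of them in DNAH5. The pair with chr5:13961109-13961816 scored 53.79 in the DMSO list and was not listed in the ponatinib list, while chr5:13947198-13950878 scored 30.08 in the ponatinib list and was not listed in the DMSO list. Of its 20 pairs, 4 stood in both lists.

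The ANKRD29 bait also had 36 contacts of each list with fragments 15.1 to 15.5 Mb below it on chromosome 18, 16 of them in both lists. They made up 36 of its 44 contacts on chromosome 18 in the ponatinib list and 36 of 39 in the DMSO list. Of the 56 different partners, 52 overlapped PTPRM, which encodes a receptor tyrosine phosphatase, at chr18:8110211-8419575, 33 in each list and 14 in both. The highest scores were 44.58 and 29.91. Another 10 fragments between 23 and 24 Mb reached the same stretch with 9 pairs in the ponatinib list and 10 in the DMSO list, 4 in both. PTPRM too was named after its values were seen.

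**Figure D4:**
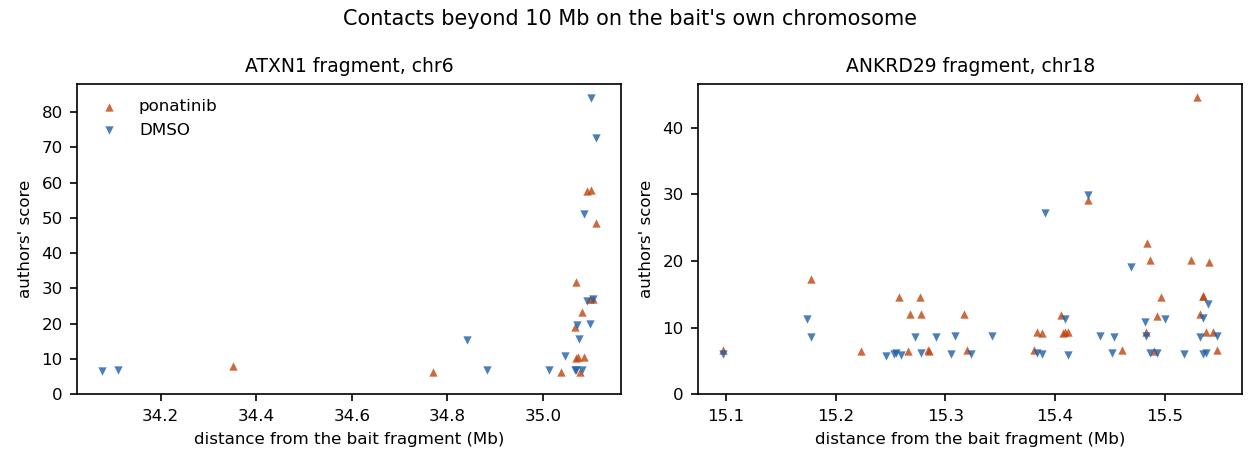
The authors' score of contacts that the ATXN1 bait and the ANKRD29 bait make over 10 Mb away on their own chromosome, against the distance in Mb. Triangles pointing up are the ponatinib list and triangles pointing down the DMSO list. The ATXN1 contacts crowd near 35.1 Mb and reach 57.89 and 83.93; those of ANKRD29 spread from 15.1 to 15.5 Mb and reach 44.58 and 29.91.

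The first window of chromosomes 1 and 18 spans chr1:54285087-54818135, from SSBP3 to CIMAP2, and chr18:24645123-25902609, between HRH4 and SS18, where ZNF521 is the only protein-coding gene. ZNF521 is a zinc finger cofactor of blood progenitors, named after its values were seen, and SS18 a subunit of the BAF chromatin remodelling complex. The window held 30 pairs of the ponatinib list and 27 of the DMSO list with 5 in both, which is 16.7% (5.64 to 34.7) and 18.5% (6.30 to 38.1). The bait over the PARS2 start (mitochondrial prolyl-tRNA synthetase), chr1:54760683-54768762, had 26 pairs, 17 and 10 with 1 in both. The bait in TTC22, a gene of tetratricopeptide repeats, chr1:54776968-54795373, had 19 pairs, 11 and 12 with 4 in both.

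Both baits paired in both lists with chr18:25893517-25902609, which lies 114 kb below SS18 and is the upper limit of the window. TTC22 paired with it at 22.70 in the ponatinib list and 30.55 in the DMSO list, its highest score in each. PARS2 paired with it at 15.50 and 8.75, and had higher scores with other fragments, up to 22.70 in the ponatinib list and 15.81 in the DMSO list. Pairs on chromosome 18 lay only at or below it, 28 below in the ponatinib list and 25 in the DMSO list. On chromosome 1 the next bait, which holds the TTC22 start 1.82 kb further up, had 1 pair, and the CIMAP2 bait after it, at the upper limit of the window, had 1 as well. Scores were low and even, with medians of 8.52 in the ponatinib list at every distance up to 1 Mb. In the DMSO list the medians were 10.28 under 100 kb and 8.75 from there to 1 Mb. The lowest score of the window stood at 20 of 30 pairs of the ponatinib list (8.52) and 16 of 27 of the DMSO list (8.75). The even medians thus mostly reflect ties at that score. The rank correlation was -0.31 in each list, over mostly tied pairs.

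The second window joined chr1:106776727-107964460, which holds PRMT6, NTNG1 and VAV3, to chr18:27178338-27501011 beside CHST9. NTNG1 encodes netrin G1, a membrane-bound guidance protein of axons, VAV3 a guanine nucleotide exchange factor, and CHST9 a sulfotransferase. It held 15 pairs of the ponatinib list and 17 of the DMSO list, 3 in both (20.0%, 4.33 to 48.1, and 17.6%, 3.80 to 43.4). The bait over the NTNG1 start had 17 pairs, 7 and 13, and all 3 in both lists, while the VAV3 bait had 5, 2 and 3. The NTNG1 pair with the highest summed score among those in both lists, with chr18:27200210-27204511, scored 15.50 in the ponatinib list and 15.81 in the DMSO list. The highest NTNG1 scores were 18.39 in the ponatinib list, with chr18:27365487-27366012, and 18.75 in the DMSO list, with chr18:27364396-27365486. The rank correlation of score with distance was -0.30 and -0.28 over 15 and 17 pairs.

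The share of identical pairs found in both lists varied from window to window. The 3 to 10 and 6 to 16 windows were each carried by 1 bait, and between 59.4% and 63.1% of their pairs in either list were shared, with intervals that start at 44.3 or above. In the windows on chromosome 18 at most 33.3% of the pairs were shared. Their intervals in the ponatinib list were 18 to 51.8 for chromosomes 5 and 18. For chromosomes 1 and 18 they were 5.64 to 34.7 in the first window and 4.33 to 48.1 in the second. Pairs of 1 bait are not independent, so these intervals do not test whether the windows differ. Looser matching was run only on whole combinations, which include the pairs outside the windows, so it cannot decide the order of the windows. Identical pairs made up 43.6% of all DMSO pairs for 3 and 10, 47.5% for 6 and 16, 14.8% for 1 and 18 and 26.8% for 5 and 18. With ends matched within 10 kb these shares were 59.6%, 71.2%, 51.9% and 63.4%. Median scores were lower in the first chromosome 1 to 18 window, 8.52 and 8.75, than in the chromosome 3 to 10 window, 19.01 and 20.44. Score and sharing did not go together in every comparison. In the DMSO list the chromosome 5 to 18 and 6 to 16 windows both had a median of 15.81, a recurring score, with 33.3% and 60% shared. In the ponatinib list their medians were 11.35 and 15.50, with 33.3% and 62.8% shared, so there the higher median went with more sharing. Whether a rearranged chromosome lies behind any of the windows was not tested.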

How the data were processed

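Promoter-capture Hi-C was measured in 2 libraries, 1 per treatment, each forming its own group. The authors deposited 1 list per library of bait fragment, partner fragment and score. The score is the authors' own value within its list. The sources used here do not state its definition, the caller or the aligner. Per the submitters' processing notes, coordinates are on hg38. The files hold no counts, so depth and its precision are unknown.

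An interaction was taken as an unordered fragment pair, shared when both lists hold the identical pair. Pairs were linked when the midpoints of both ends lay within 1 Mb. The junction point was the shared pair of a window with the highest summed score, and distance the sum of both ends' distances from it. Analyses ran in Python 3.11.15 with pandas 2.3.3 and scipy 1.17.1, and grouping and decay were tested on simulated pairs. Genes and promoters came from RefSeq, GRCh38.p14, the build of the lists. With 1 library per group no test was run. The genes named were CDC25A, GRID1 and ATXN1, those at the 3 highest scoring pairs of each list and combination, those in the 5 baits with the most pairs, those at window edges, and CDC25B, CDC25C, ATXN1L and ATXN2; 1 further gene of that rule is not reported here. The members, lists and measures were chosen with earlier results of these data known. The alternatives were score minimums of 7 and 10, equal list lengths, ends matched within 5 or 10 kb, linkage of 500 kb or 2 Mb, other junction points and distances, shared pairs alone, and leaving out the top bait.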

Additional observations from a re-analysis of the deposited data

How the results depend on the processing

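Of 80 alternatives to 20 results, 61 gave a value inside the interval of the value first reported and 19 a value outside it. Shares of the DMSO pairs found in both lists were higher with looser matching, which counts more pairs by construction. For chromosomes 3 and 10 the share was 43.6%, and 57.4% within 5 kb and 59.6% within 10 kb; a score of at least 7 gave 61.2% and of at least 10 gave 64.8%. For 6 and 16 it was 47.5%, and 67.8% and 71.2% within 5 and 10 kb; for 1 and 18 it was 14.8%, and 42.6% and 51.9%; for 5 and 18 it was 26.8%, and 56.1% and 63.4%. At a score of at least 7 the windows held 88.7% for 3 and 10, 86.2% for 6 and 16, 65.0% for 1 and 18 and 88.5% for 5 and 18. Without the ATXN1 bait the ratio of ponatinib over DMSO numbers for 6 and 16 was 1.82, resting mostly on pairs outside the window. Over shared pairs alone the rank correlation for 6 and 16 changed sign, to 0.17 in the ponatinib list and 0.13 in the DMSO list. For 1 and 18 it was -0.74 in the ponatinib list and -0.205 in the DMSO list, over 5 shared pairs. Both of these DMSO values stayed inside their intervals. For 5 and 18 the rank correlation was -0.82 in the ponatinib list and -0.92 in the DMSO list. Apart from the matching, the cause was not tested. The junction point at the outer limit of the window was an alternative chosen after seeing the data. No paired analysis was possible because each treatment has 1 library and the labels give no replicate numbers. Unknown read depth limits every statement on a pair absent from a list.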

Other observations

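Outside the windows the largest linked group joined BTBD9 on chromosome 6 (chr6:38199828-38481793) to WWOX, an oxidoreductase gene, on chromosome 16 (chr16:78261055-78987544) with 6 pairs, 2 in the ponatinib list and 4 in the DMSO list and none in both. The 3 highest of these scored 12.43, 12.31 and 11.64, all in the DMSO list. In chromosomes 5 and 18 a group of 4 pairs joined the region of CTNND2 to that of LAMA3 and ANKRD29, 3 in the ponatinib list and 1 in the DMSO list and none in both. BTBD9, WWOX and CTNND2 were named after their values were seen.

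On chromosome 18, 11 fragments from chr18:25521723-26116050, around the upper limit of the first chromosome 1 to 18 window, paired with chr18:7226587-7571556, with 9 pairs in the ponatinib list, 6 in the DMSO list and 3 in both.

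A few scores recurred in the windows. The score 8.52 stood at 60 of 190 window pairs of the ponatinib list (31.6%) and 8.75 at 48 of 187 of the DMSO list (25.7%), followed by 15.50 at 23 pairs and 15.81 at 27, and 22.70 at 14 and 23.09 at 15. Over the whole lists 8.52 made up 1.52% of the ponatinib list and 8.75 made up 1.47% of the DMSO list. Between chromosomes 9, 13 and 22 the same values made up 35.1% and 35.4%. The 190 window pairs of the ponatinib list held 52 distinct scores and the 187 of the DMSO list 55, numbers that depend on how many pairs there are.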
